A study of Homo sapiens with 6 samples.

Results

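The genes described here are the E2F transcription factors and the retinoblastoma (RB) family in KMS-27 cells, a human multiple myeloma cell line. They were taken by name: E2F1, E2F2, E2F3, E2F4, E2F5, E2F6, E2F8, RB1, RBL1 and RBL2. Values were available for 9 of these 10 genes, among 16444 genes with values normalized to external spike-in RNA and 12075 genes with FPKM values (fragments per kilobase of RNA, made relative to the library's total). RB1 is not analysed here. The libraries labelled siControl came from KMS-27 control cells, and those labelled siChe-1 from KMS-27 cells in which Che-1, the protein encoded by AATF, was silenced. Each group had 3 libraries of total RNA, and both groups share the single cell line. The labels give neither the time after silencing nor the silencing sequence, and leave unsaid whether replicates were grown as separate cultures. P-values therefore measure the spread between libraries alone, part or all of which may be technical.

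E2F factors bind DNA, most of them paired with a DP protein, at genes needed for DNA replication and entry into the cell cycle. E2F1, E2F2 and E2F3 are the activators, whereas E2F4 and E2F5 mostly hold target genes silent together with the pocket proteins RBL1 (p107) and RBL2 (p130). Cyclin-dependent kinases phosphorylate the pocket proteins, which frees the activators. E2F6 and E2F8 repress without binding pocket proteins. Che-1 is a nuclear protein that binds RNA polymerase II and the RB protein, and the comparison asks what silencing it did to the levels of the mRNAs of this family.

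The targeted gene agreed in direction with the labels in every library. AATF stood at 97.0, 88.8 and 119 FPKM in siControl and at 14.2, 14.2 and 16.9 FPKM in siChe-1, with a limma adjusted p of 0.00027. Reads per library were recovered from the authors' spike-in table, which holds siControl replicates 1 to 3 and siChe-1 replicates 1 and 2 only. The 5 libraries had 17451004 to 19676660 recovered gene reads. Spike-in reads numbered 351573 to 519573 in siControl, 835414 and 1041244 in siChe-1 replicates 1 and 2, and 379232 in siChe-1 replicate 3. The depth of that last library is unknown, and every value on the spike-in scale below is without it. Of 10 plasma cell marker symbols, 9 had FPKM values, with a summed level of 7327 to 10731 FPKM in siControl and 8693 to 12180 FPKM in siChe-1. IGJ, the immunoglobulin joining chain, made up most of that sum. None of the 6 B cell, 7 myeloid or 6 stromal and endothelial marker symbols had an FPKM value, and the 2 T and NK cell markers listed summed to at most 1.56 FPKM.

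Several E2F genes carry E2F motifs at their own start, and these windows are shown for the activators and for RBL1, the genes of the family in which the motif was found. The sequences are the 250 bases before the annotated start in RefSeq on GRCh38.p14, read 5′ to 3′ on the strand of the gene. Windows of 7 of the 9 genes were searched, 9 in all. E2F5 was left out of the search, and no promoter of E2F8 was found. The search used TTTCCCGC, TTTCGCGC, TTTGCCGC and TTTGGCGC on both strands, and capitals mark each match.
E2F1 (chr20:33686386-33686635, minus strand): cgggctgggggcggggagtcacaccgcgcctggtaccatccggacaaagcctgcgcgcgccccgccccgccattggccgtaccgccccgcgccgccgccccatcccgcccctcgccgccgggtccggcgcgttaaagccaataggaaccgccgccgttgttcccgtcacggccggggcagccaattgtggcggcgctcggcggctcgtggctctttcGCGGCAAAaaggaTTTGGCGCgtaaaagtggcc
E2F2 (chr1:23531234-23531483, minus strand): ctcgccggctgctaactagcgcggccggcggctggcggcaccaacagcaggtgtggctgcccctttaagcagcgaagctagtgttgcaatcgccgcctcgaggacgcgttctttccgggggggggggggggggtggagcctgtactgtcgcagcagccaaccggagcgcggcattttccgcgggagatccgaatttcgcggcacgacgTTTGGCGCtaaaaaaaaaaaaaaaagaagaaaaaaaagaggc
E2F3 first start (chr6:20401629-20401878, plus strand): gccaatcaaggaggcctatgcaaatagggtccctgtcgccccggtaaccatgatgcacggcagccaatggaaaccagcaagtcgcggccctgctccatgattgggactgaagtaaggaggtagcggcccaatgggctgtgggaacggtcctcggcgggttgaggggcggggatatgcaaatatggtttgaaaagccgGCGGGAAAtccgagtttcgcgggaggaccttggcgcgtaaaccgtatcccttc
E2F3 second start (chr6:20403364-20403613, plus strand): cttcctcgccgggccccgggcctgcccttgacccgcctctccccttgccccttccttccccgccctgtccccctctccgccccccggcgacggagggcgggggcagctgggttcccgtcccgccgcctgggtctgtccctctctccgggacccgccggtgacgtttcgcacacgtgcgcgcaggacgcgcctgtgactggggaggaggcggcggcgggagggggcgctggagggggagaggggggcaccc
RBL1 (chr20:37095998-37096247, minus strand): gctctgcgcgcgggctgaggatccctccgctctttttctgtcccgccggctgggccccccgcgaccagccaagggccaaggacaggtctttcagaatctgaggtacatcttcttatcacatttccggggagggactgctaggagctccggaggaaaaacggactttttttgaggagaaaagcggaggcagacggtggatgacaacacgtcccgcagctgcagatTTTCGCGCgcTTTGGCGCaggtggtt

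The motif was present in 4 of the 9 windows and in 4 of the 7 genes, against 2.79% of 35116 promoter windows of the same length. E2F1 and RBL1 each held 2 matches, and 0.122% of those windows held 2 or more. The first start of E2F3, which gives the longer protein E2F3a, held 1 match, and its second start, which gives E2F3b, held none. The windows of E2F4, E2F6 and RBL2 held none of these letters. A match is a description of the sequence, and binding was not measured.

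Relative to all other genes, silencing of Che-1 went with lower E2F3 and E2F5 and higher RBL2. E2F3 fell 1.6-fold in mean FPKM, E2F5 fell 1.48-fold and RBL2 rose 1.30-fold. The other 6 genes did not pass the test, which was limma on log2(FPKM + 1) with an adjusted p below 0.05. Thus 3 of 9 were called, 1 higher and 2 lower, where 28% of all 10778 tested genes were called, 16.8% higher and 11.2% lower. The share of the family is near that background. Printed FPKM values, means, SDs and folds of means, and the overlap of groups, use FPKM as deposited, whereas limma used rescaled FPKM. On the deposited FPKM the groups' libraries did not overlap for 4 of 9 genes, 3 lower (E2F2, E2F3 and E2F5) and 1 higher (RBL2). This held for 42.8% of all tested genes, 23.7% lower and 19.1% higher. The median change of the 9 genes was 0.07 on the log2 scale, against 0.06 for all genes tested.

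**Figure D1:**
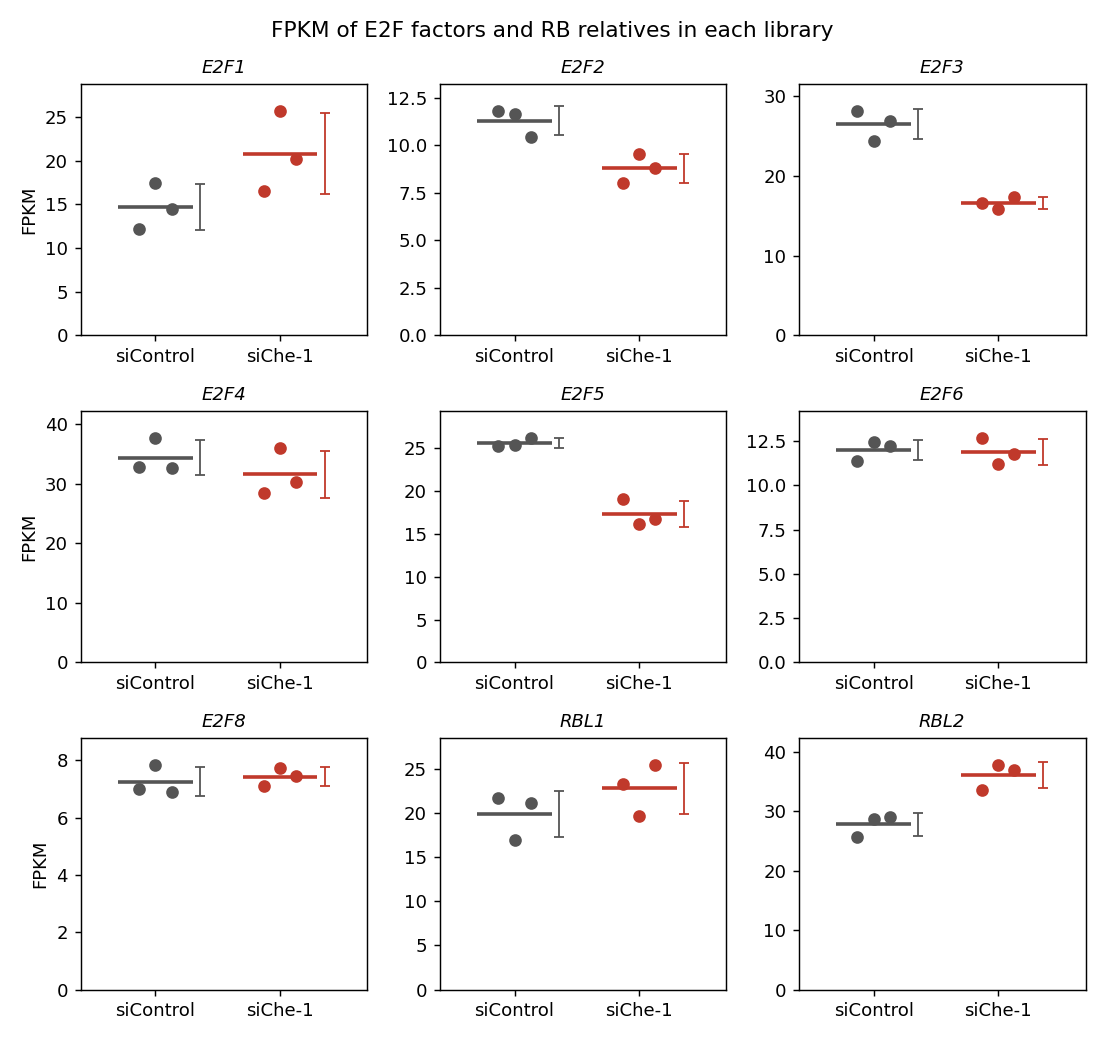
FPKM of each of the 9 genes in every library, with siControl in grey and siChe-1 in red; horizontal lines are group means and bars are the SD of 3 libraries. In these FPKM values as deposited, the groups are apart for E2F2, E2F3, E2F5 and RBL2 and overlap for the other 5 genes.

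Of the activators, E2F3 fell, and E2F1 and E2F2 were not called. E2F3 (hg19, chromosome 6, 20402137 to 20493945, plus strand) stood at 28.2, 24.4 and 26.9 FPKM in siControl and at 16.6, 15.8 and 17.3 FPKM in siChe-1. All siChe-1 libraries were far below all siControl libraries, and the spread within siChe-1 was small. The means were 26.5 ± 1.90 and 16.6 ± 0.76 FPKM (SD, n = 3 each). The limma log2 change was -0.55 ± 0.08 (SE), with a 95% interval of -0.73 to -0.37 and an adjusted p of 0.00322. Only 4.79% of the tested genes had a lower value of this change.

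E2F1, an activator that also drives apoptosis genes (hg19, chromosome 20, 32263292 to 32274210, minus strand), varied more from library to library. It stood at 12.2, 17.4 and 14.5 FPKM in siControl and at 16.5, 25.8 and 20.2 FPKM in siChe-1. The mean was higher in siChe-1, but the lowest siChe-1 library lay below the highest siControl library. The log2 change was 0.56 ± 0.18 (SE), with a 95% interval of 0.12 to 0.99. The limma adjusted p of 0.0597 missed the threshold. It was 0.0268 without the siControl library at position 2 of the deposited list and 0.0446 without the siChe-1 library at position 1. On the 5 libraries of recovered reads, scaled by TMM (edgeR's scaling to the bulk of genes), E2F1 rose by 0.52 ± 0.12 (SE), with an edgeR adjusted p of 0.00702.

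E2F2, also an activator (hg19, chromosome 1, 23832920 to 23857712, minus strand), stood at 11.8, 11.6 and 10.4 FPKM in siControl and at 8.04, 9.55 and 8.82 FPKM in siChe-1. The groups did not overlap. The log2 change was -0.24 ± 0.10 (SE), with a limma adjusted p of 0.113. With the FPKM scaling as deposited the adjusted p was 0.0399. The recovered reads of 5 libraries under TMM gave -0.36 and an edgeR adjusted p of 0.0347.

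The makeup of the activator mRNA pool is given as a description, with no test. Of the summed FPKM of E2F1, E2F2 and E2F3, E2F3 held 54.0%, 45.7% and 51.8% in siControl, against 40.4%, 30.9% and 37.4% in siChe-1. E2F1 held 23.3%, 32.6% and 28.0% in siControl, against 40.1%, 50.4% and 43.6% in siChe-1. E2F3 was thus the most abundant activator in all siControl libraries. In the siChe-1 libraries E2F1 was level with or above it. The FPKM of E2F1 divided by that of E2F3 was 0.43, 0.71 and 0.54 in siControl, against 0.99, 1.63 and 1.17 in siChe-1. This quotient does not depend on how libraries are scaled, and the groups did not overlap. The pair joins the activator that fell and the one with a higher mean, and E2F1 alone overlapped. How often other pairs of genes separate was not computed.

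Of the repressors that work with pocket proteins, E2F5 fell and E2F4 was not called. E2F5 (hg19, chromosome 8, 86089619 to 86132643, plus strand) stood at 25.2, 25.4 and 26.2 FPKM in siControl and at 19.0, 16.2 and 16.7 FPKM in siChe-1. The siControl libraries lay close together and well above every siChe-1 library. The log2 change was -0.45 ± 0.09 (SE), 95% interval -0.66 to -0.25, with a limma adjusted p of 0.00971. E2F5 overlaps C8orf59 on the opposite strand over 3083 bases in GENCODE (GRCh38), and the labels do not state if reads were counted by strand. C8orf59 itself stood at 98.6 ± 14.0 FPKM in siControl and 82.3 ± 2.90 FPKM in siChe-1 (SD, n = 3 each), a log2 change of -0.16 with a limma adjusted p of 0.305. Its part in the value of E2F5 was not tested.

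E2F4, the most abundant E2F factor here (hg19, chromosome 16, 67226068 to 67232821, plus strand), stood at 32.8, 37.7 and 32.6 FPKM in siControl and at 28.5, 36 and 30.3 FPKM in siChe-1. The groups overlapped, and the log2 change of -0.03 ± 0.12 (SE) had a 95% interval of -0.31 to 0.25. Its sign was positive in 4 of 14 other settings, with upper quartile scaling and without the siControl library at list position 2 or the siChe-1 library at position 1 or 3. E2F4 and E2F6 have processed pseudogene copies in GENCODE, as does E2F3, and reads could be split between a gene and its copies.

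E2F6 and E2F8, the repressors that need no pocket protein, stayed close to the median gene. E2F6 stood at 11.4, 12.4 and 12.2 FPKM in siControl and at 12.7, 11.2 and 11.8 FPKM in siChe-1. E2F8 was the lowest of the family, at 7.01, 7.84 and 6.91 FPKM in siControl and 7.11, 7.74 and 7.44 FPKM in siChe-1. In both genes the siChe-1 libraries lay within or across the siControl range. The 95% intervals of the log2 change were -0.13 to 0.28 for E2F6 and -0.11 to 0.33 for E2F8, with limma adjusted p of 0.565 and 0.406. With the deposited scaling the change of E2F6 was -0.01. E2F7, the close relative of E2F8, is outside the list and was chosen after its values were seen. It stood at 20.0, 15.5 and 16.0 FPKM in siControl and at 24.4, 21.1 and 25.2 FPKM in siChe-1, a log2 rise of 0.53 with a limma adjusted p of 0.0145. The adjusted p of E2F7 was 0.0507 to 0.0598 when the siControl library at list position 3, or the siChe-1 library at position 1 or 3, was left out.

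Of the pocket proteins, RBL2 rose. RBL2 (hg19, chromosome 16, 53468351 to 53537170, plus strand), the pocket protein of resting cells, stood at 25.6, 28.6 and 29.1 FPKM in siControl and at 33.5, 37.8 and 36.9 FPKM in siChe-1. Every siChe-1 library was above every siControl library. The log2 change was 0.46 ± 0.09 (SE), 95% interval 0.26 to 0.66, with a limma adjusted p of 0.00875. RBL2 overlaps AKTIP on the opposite strand over 610 bases. AKTIP stood at 17.1 ± 2.80 FPKM in siControl and 19.7 ± 1.47 FPKM in siChe-1 (SD, n = 3 each), with a limma adjusted p of 0.0819. Its part in the value of RBL2 was not tested.

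RBL1 (hg19, chromosome 20, 35626178 to 35724410, minus strand), the pocket protein of cycling cells and itself an E2F target, stood at 21.7, 16.9 and 21.1 FPKM in siControl and at 23.2, 19.6 and 25.4 FPKM in siChe-1. The groups overlapped. The log2 change was 0.27 ± 0.12 (SE), with a 95% interval of 0.00 to 0.55 and a limma adjusted p of 0.119. Under TMM on the recovered reads it was 0.11 with an edgeR adjusted p of 0.513.

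Set in order of FPKM, which is per length of transcript, the siControl libraries ran from E2F4 (mean 34.4) over RBL2 (27.8), E2F3 (26.5), E2F5 (25.6), RBL1 (19.9), E2F1 (14.7), E2F6 (12) and E2F2 (11.3) to E2F8 (7.25). The ranges of RBL2 and E2F3, of E2F3 and E2F5, and of the neighbours from RBL1 down to E2F2 overlapped. In siChe-1 the order was RBL2 (36.1), E2F4 (31.6), RBL1 (22.8), E2F1 (20.8), E2F5 (17.3), E2F3 (16.6), E2F6 (11.9), E2F2 (8.80) and E2F8 (7.43). Here RBL2 overlapped E2F4, RBL1 overlapped E2F1, E2F1 overlapped E2F5, and E2F5 overlapped E2F3. By mean, E2F3 moved down the order, while RBL1 and E2F1 moved ahead of E2F5 and E2F3. The siChe-1 range of E2F1 (16.5 to 25.8) also overlapped that of E2F3 (15.8 to 17.3). The 9 genes summed to 176 to 182 FPKM in siControl and 165 to 180 FPKM in siChe-1, ranges that overlap.

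Against the spike-ins every one of the 9 genes was lower in siChe-1, as were most genes of the cell. Fewer cells and less RNA per cell cannot be told apart in such bulk samples. Of the 9 genes, 7 had an adjusted p below 0.05 in the authors' deposited table, all lower. That table called 63.6% of 12591 genes, 63.5% lower and 0.0635% higher. The median log2 change of all these genes in the authors' deposited table was -1.25, and that of the 9 genes was also -1.25. Both siChe-1 libraries lay below all 3 siControl libraries for each of the 9 genes, as for 89.4% of 12353 genes with recovered reads. These values share 1 scaling factor per library, so they largely carry the same shift.

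**Figure D2:**
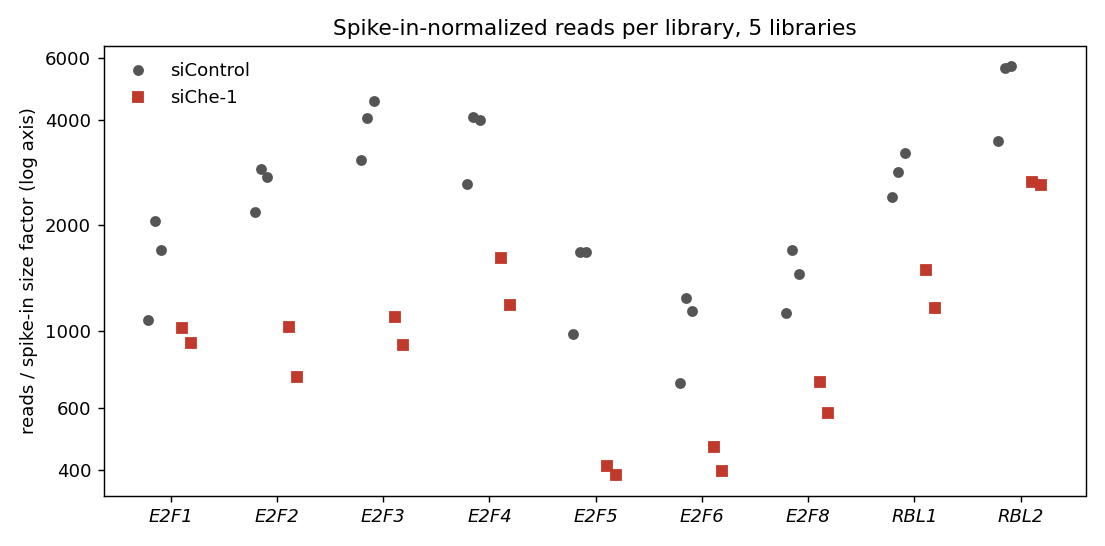
Reads of each gene divided by the spike-in size factor of its library (log axis), for siControl replicates 1 to 3 as grey circles and siChe-1 replicates 1 and 2 as red squares. The red squares lie below the grey circles for every gene, with the smallest gap for E2F1.

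E2F3 again had the largest fall of the family. It had 2760, 2504 and 2997 recovered reads in siControl replicates 1 to 3 and 1641 and 1738 in siChe-1 replicates 1 and 2. Divided by the spike-in size factors these became 3070, 4046 and 4520 in siControl, against 1097 and 911 in siChe-1. In the authors' deposited table E2F3 was 3.86-fold lower (log2 -1.95, adjusted p 0.000123), and 5.70% of genes lay below it. E2F5 went from 977, 1679 and 1682 spike-in-normalized reads in siControl to 410 and 386 in siChe-1. It was 3.63-fold lower in the authors' deposited table, with an adjusted p of 0.00277. Both genes thus fell more than the median gene on either scale.

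E2F1 and RBL2 had the smallest differences and were the 2 genes of the family that the authors' deposited table did not call. E2F1 had 1072, 2057 and 1704 spike-in-normalized reads in siControl, against 1014 and 922 in siChe-1. The lowest siControl library, replicate 1, was close to the siChe-1 libraries. In the authors' deposited table E2F1 had a log2 change of -0.73 and an adjusted p of 0.225. RBL2 went from 3478, 5633 and 5694 spike-in-normalized reads to 2663 and 2607. In the authors' deposited table RBL2 had a log2 change of -0.91 and an adjusted p of 0.0608. edgeR on the recovered reads with the same spike-in factors gave adjusted p of 0.0397 for E2F1 and 0.00786 for RBL2, both lower, where it called 84.3% of genes, 84.1% lower and 0.194% higher.

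The other genes lay between these on the spike-in scale. In the authors' deposited table the log2 change was -1.57 for E2F2, -1.35 for E2F4, -1.25 for E2F6, -1.14 for E2F8 and -1.09 for RBL1. The adjusted p in the authors' deposited table was 0.00124, 0.00474, 0.0215, 0.0161 and 0.0164 in the same order. Without siChe-1 replicate 2, edgeR with the spike-in factors gave a log2 change of -1.35 for E2F2 and -0.92 for RBL1. The values of E2F4, E2F6 and E2F8 lay between these. A fit without a siChe-1 replicate has 1 siChe-1 library, which is assumed to vary as the siControl libraries do. Calls from such fits are therefore not counted. With the replicate number as a block edgeR called 0 of 9, and 3 were lower at an unadjusted p below 0.05. That fit called only 60 of all 12353 genes, so the loss of calls was not particular to this family.

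The same reads scaled by TMM instead gave 5 called genes, 2 higher (E2F1 and RBL2) and 3 lower (E2F2, E2F3 and E2F5), where edgeR called 28.8% of genes, 13.4% higher and 15.4% lower. The log2 changes under TMM were -0.73 for E2F3, -0.60 for E2F5 and 0.35 for RBL2, with edgeR adjusted p of 0.000434, 0.00302 and 0.0282. The log2 change of E2F1 was thus -0.73 with the spike-in factors and 0.52 with TMM, and that of RBL2 was -0.90 and 0.35 by the same test. E2F8 and RBL1, at 0.09 and 0.11 under TMM, did not pass there.

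**Figure D3:**
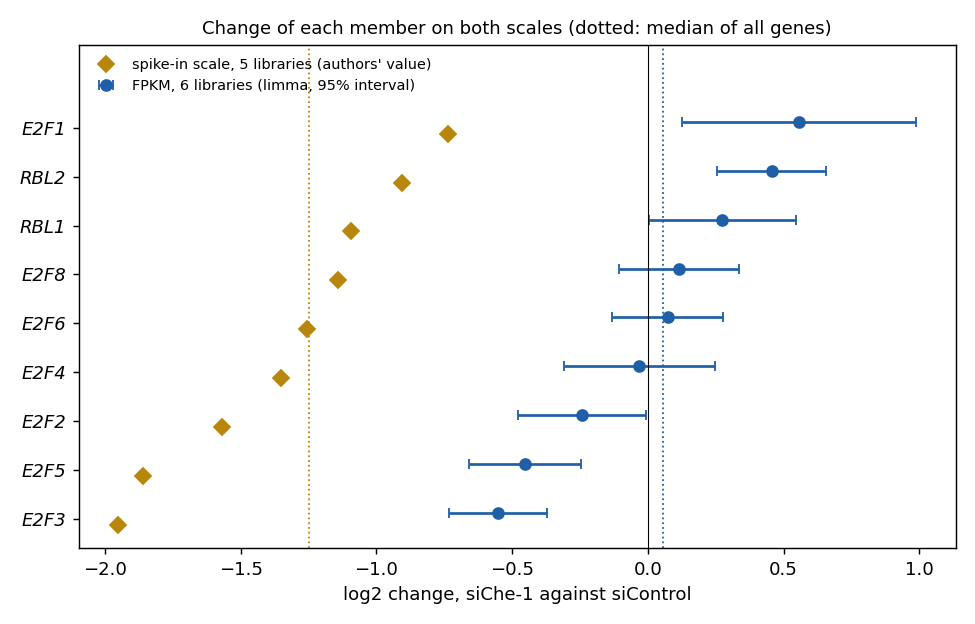
Log2 change of each gene between siChe-1 and siControl, as the authors' spike-in value from 5 libraries (diamonds) and as the limma value on log2(FPKM + 1) from 6 libraries (circles, with 95% intervals). Dotted lines mark the medians of all genes, -1.25 and 0.06, and E2F3 and E2F5 lie left of both while E2F1 and RBL2 lie right of both.

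At the level of transcripts, E2F3 was lower from both of its starts. The 9 genes had 20 transcripts in the authors' deposited table, of which 3 were lower and 2 higher at a q-value below 0.05, where 18.3% of 18750 transcripts passed, 10.2% lower and 8.05% higher. The E2F3a transcript (NM_001949) stood at 8.94, 8.2 and 7.12 FPKM in siControl and at 4.82, 5.27 and 5.52 FPKM in siChe-1. The E2F3b transcript (NM_001243076) stood at 19.2, 16.2 and 19.7 FPKM in siControl and at 11.8, 10.6 and 11.8 FPKM in siChe-1. Neither overlapped between the groups, and the q-values in the authors' deposited table were 0.0269 and 0.000601. E2F3a made up 30.5% of the gene's mean FPKM in siControl and 31.4% in siChe-1. These are shares of group means, given without their spread between libraries, and a change of share was not tested.

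E2F5 was listed as 4 transcripts, none with a q-value below 0.05. NM_001951 stood at 6.14, 3.72 and 6.12 FPKM in siControl and at 0.23, 0.34 and 0.05 FPKM in siChe-1, with a q-value of 0.401 in the authors' deposited table. Its share of the gene's mean FPKM was 20.8% in siControl and 1.19% in siChe-1. The groups were far apart in these values although the authors' test did not call them. NM_001083588, the most abundant form in siControl, stood at 7.39, 13.4 and 14.0 FPKM there and at 7.65, 5.57 and 6.84 FPKM in siChe-1, with a q-value of 0.185 in the authors' deposited table. NM_001083589 and a transcript assembled from the reads had higher means in siChe-1, also with no call.

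The single transcripts of E2F1, E2F2 and RBL2 passed in the authors' deposited table, and that of E2F4 did not (q-value 0.557). The q-value was 0.000601 for E2F1 (log2 0.50), 0.0140 for E2F2 (log2 -0.36) and 0.0160 for RBL2 (log2 0.38). By limma on the rescaled FPKM neither E2F1 nor E2F2 was called, while limma on the FPKM scaling as deposited called E2F2. The 2 transcripts of RBL1, the 3 of E2F8 and the 5 of E2F6 had no q-value below 0.05.

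**Figure D4:**
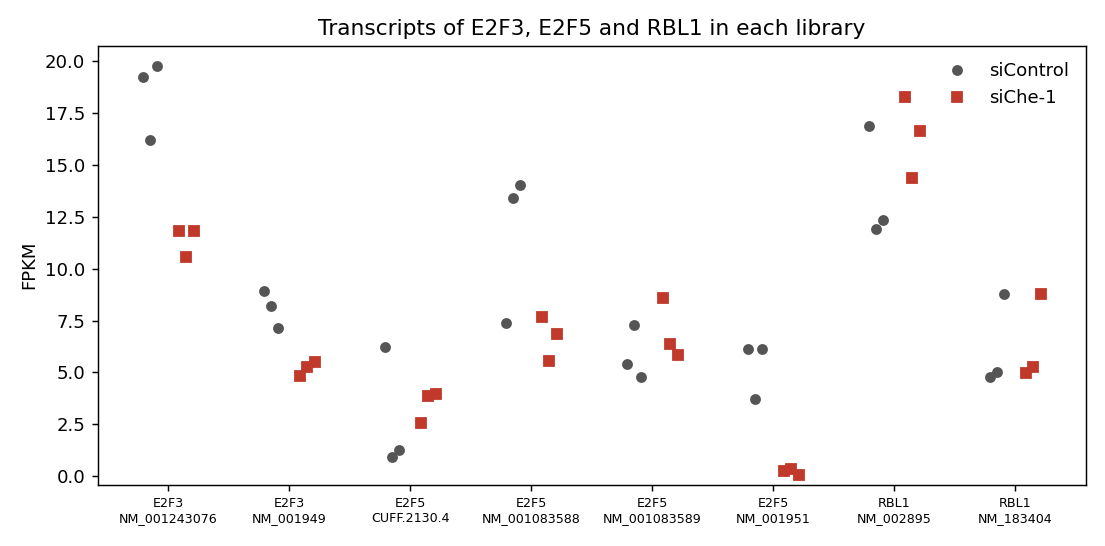
FPKM of each transcript of E2F3, E2F5 and RBL1 in every library, with siControl as grey circles and siChe-1 as red squares. Both E2F3 transcripts are lower in siChe-1, and the E2F5 transcript NM_001951 is near 0 in all 3 siChe-1 libraries.

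The partners and regulators of the family were read on the FPKM scale from lists chosen by role. Each count of called genes is to be read against the 16.8% of all tested genes called higher and the 11.2% called lower. Of the DP proteins, which pair with E2F1 to E2F6, neither TFDP1 nor TFDP2 was called, with log2 changes of -0.16 and 0.14. With annotated transcripts only, a setting added after the data were seen, TFDP2 was higher, at 0.56 with a limma adjusted p of 0.0248. In the DREAM and MuvB complex, through which E2F4 and RBL2 silence cell cycle genes, 1 of 9 tested genes was higher (RBBP4, 0.31, limma adjusted p 0.0429) and none lower. LIN54, its DNA-binding subunit, had -0.28 with a limma adjusted p of 0.0567. It was called lower in 3 of 14 other FPKM settings, and under TMM on the recovered reads, at -0.47 with an edgeR adjusted p of 0.00733. MYBL2, which takes over the complex in cycling cells, was the most abundant, at 50.2 and 47.3 mean FPKM, and its log2 change of 0.01 was negative with the deposited scaling. Of 11 tested partners of E2F6 in the polycomb complex PRC1.6, HDAC1 was higher (0.36) and MAX (-0.53) and RYBP (-0.39) were lower. CBX3, the most abundant of them, was not called on FPKM. Under TMM on the recovered reads edgeR called 4 of the 11 lower, CBX3 included (-0.39, adjusted p 0.0133), and 0 higher. It called 15.4% of all genes lower. The call of MAX held in all 14 other settings, while those of RBBP4, RYBP and HDAC1 were lost in 8, 5 and 4 of them.

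The kinases and cyclins that act on pocket proteins moved apart. Of 9 tested genes, 2 were higher and 3 lower, against 16.8% and 11.2% of all genes. CDK4, a kinase that opens the cell cycle by phosphorylating pocket proteins, fell from a mean of 43.4 to 17.5 FPKM (log2 -1.17, limma adjusted p 0.00403). CDK6, its close relative, rose from 49.5 to 83.1 FPKM (0.83, limma adjusted p 0.00214). CCNC, the cyclin that pairs with CDK3 on pocket proteins and with the Mediator kinase, fell from 102 to 63.9 FPKM (-0.57). CCNE2 rose (0.45) and CCNA2 fell (-0.36). The calls of CDK4, CDK6 and CCNC held in all 14 other settings of the FPKM analysis, and that of CCNE2 was lost in 4 of 14 and that of CCNA2 in 5 of 14.

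Inhibitors of these kinases were called only in the upward direction, in 3 of 6 tested genes against 16.8% of all genes. Their median log2 change was 0.56 against 0.06 for all genes. The 3 called genes had mean FPKM below 10 and were not tested at that minimum. That minimum gave 949 higher and 948 lower calls among 6285 genes, against 1812 and 1203 among 10778 genes at the minimum of 1. The 16.8% covers genes of all levels, and the share among low genes was not computed. CDKN2B (p15) rose from 4.41 to 7.68 FPKM (0.76, limma adjusted p 0.00515) and CDKN2D (p19) from 4.83 to 8.89 FPKM (0.84, limma adjusted p 0.0123). CDKN1A (p21) stood at 1.66, 2.13 and 8.76e-05 FPKM in siControl and at 4.78, 5.65 and 4.82 FPKM in siChe-1, with a limma adjusted p of 0.0191. One siControl value of CDKN1A is thus close to 0. With 0.1 in place of 1 added to the FPKM, its limma adjusted p was 0.0797. Without the siChe-1 library at position 3 it was 0.0592. CDKN2D then had 0.0517, which left CDKN2B as the 1 call of the list. CDKN2A, by far the most abundant of the list at 169 and 141 FPKM, was not called. None of the 4 phosphatase genes was called on FPKM, PPP1CA and PPP1CC included. Under TMM on the recovered reads edgeR called 1 of the 4 lower (PPP1CC, -0.41, adjusted p 0.0165) and 0 higher. It called 15.4% of all genes lower.

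Among 16 tested corepressors that pocket proteins recruit, 5 were higher and none lower (HDAC1, SIN3A, RBBP4, ARID4B and KDM5A, 0.28 to 0.36), where 16.8% of all genes were higher. Under TMM on the recovered reads 0 of the 16 were called by edgeR, and 1 had an unadjusted p below 0.05. These changes were small, and all 5 calls were lost in at least 4 of 14 other settings, with none of the 5 called under the deposited scaling, or without the siChe-1 library at position 1 or that at position 3. RBBP7, the most abundant of them, was not called. Of 8 coactivators of E2F factors, KAT2B (PCAF) rose (0.66, limma adjusted p 0.00601) and TRRAP rose (0.34, limma adjusted p 0.0235), the latter in 8 of 14 other settings. KAT2A, the most abundant coactivator, had a log2 change of -0.19 and was not called. Under TMM on the recovered reads edgeR called 4 of the 8 higher (EP300, CREBBP, KAT2B and TRRAP) and 0 lower. It called 13.4% of all genes higher and 15.4% lower.

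The E2F target genes of DNA replication and the G1/S step kept close to the median of all genes. Of 42 tested, 2 were higher (CCNE2 and BRCA1) and 2 lower (CCNA2 and SLBP), and 38 were not called, where 16.8% of all genes were higher and 11.2% lower. Under TMM on the recovered reads edgeR called 0 higher and 8 lower (1 and 11 at an unadjusted p below 0.05), where it called 13.4% of all genes higher and 15.4% lower. Their median log2 change was -0.05, against 0.06 for all genes. SLBP, which processes histone mRNA, fell from 121 to 88.0 FPKM (-0.36, limma adjusted p 0.0200), and RRM2, the most abundant target, stood at 197 and 211 FPKM (0.20, limma adjusted p 0.164). The number called lower rested on the scaling and on single libraries, at 6 with the deposited scaling or the median of ratios over all tested genes and 0 without the siControl library at list position 1. No target was called in either direction without the siChe-1 library at position 1 or that at position 3. In the authors' deposited table all 42 were called lower against the spike-ins, where 63.5% of 12591 genes were. Their median log2 change there was -1.38, against -1.25 for all these genes.

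Among the apoptosis genes that E2F1 can activate, calls were made in both directions. Of 10 tested, 4 were higher and 1 lower, against 16.8% and 11.2% of all genes. PMAIP1 (NOXA) rose from 97.5 to 184 FPKM (log2 1.0, limma adjusted p 0.00187) and TP53INP1 from 32.0 to 63.0 FPKM (1.04, limma adjusted p 0.00136). Both are also p53 targets. APAF1 (0.43) and CASP8 (0.25) rose, while HRK (-1.04) fell. The call of CASP8 was lost in 9 of 14 other settings and that of APAF1 in 1 of 13, without the siControl library at list position 3.

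**Figure D5:**
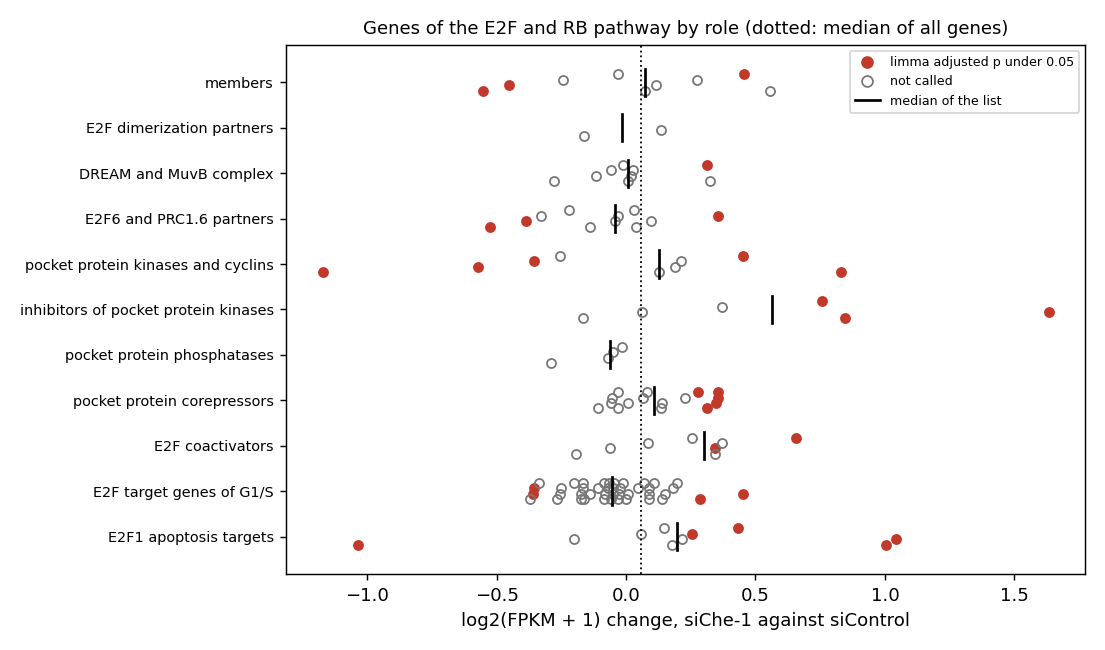
Log2(FPKM + 1) change between siChe-1 and siControl of every tested gene in 11 groups by role, with filled red points for genes with a limma adjusted p below 0.05, open circles for the rest, black bars for group medians and a dotted line at 0.06, the median of all genes. The inhibitors of pocket protein kinases have the highest median, 0.56, and the E2F target genes gather near 0.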

How the data were processed

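Total RNA libraries of KMS-27 cells, 3 siControl and 3 siChe-1, were grouped by their titles. Per the submitters' processing notes the build was hg19 and the tools included HTSeq, DESeq2, TopHat, Cufflinks and Cuffdiff. The deposited tables hold, per the file headers, the authors' read counts of spike-ins, group means of spike-in-normalized counts (a signal) with the authors' ratio, its log2, p-value and adjusted p for 16444 genes, and FPKM for 18750 transcripts with q-values. The FPKM values of single libraries carry no replicate number.

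FPKM of transcripts was summed by gene, rescaled by the median of ratios over genes with a mean of at least 10, and log2(FPKM + 1) was tested in 10778 genes whose mean reached 1 with limma 3.58.1 (R 4.3.3). Folds on this scale understate the change of low genes. The rescaling factors of the libraries were 0.956 to 1.06. Printed FPKM values, their means, SDs, sums and folds, and the overlap of groups are from before the rescaling. Whole reads of 5 libraries were recovered from the authors' means for 15481 of 15719 genes (98.5%), to a relative tolerance of 1e-14. The 238 others hold 27.4% of normalized siControl reads. With simulated reads 100% of genes were recovered right, and 0.7% of shifted values gave whole reads. The recovered reads were tested with edgeR 4.0.16 (quasi-likelihood) and, as an alternative, DESeq2 1.42.0, for genes with a mean of at least 10. All p-values are two-sided and adjusted by Benjamini-Hochberg over all genes tested, with a threshold of 0.05.

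On simulated data limma called 86.5% of changes of 0.5 and 100% of changes of 1 (10778 genes, 9 false calls each). edgeR with TMM called 21% and 86% (12353 genes, 5 and 9 false calls). The limma simulation smoothed the spread over genes and changed only a few, better measured genes. The edgeR simulation kept a spread for each gene, had 5 libraries and changed a few genes of any level. These shares are therefore not comparable with each other. Neither setting matches the data, where limma called 28% of genes.

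The genes and lists were chosen with earlier results of these data known. Named are all genes of the family, AATF, and of each list the 2 with the smallest limma p and the most abundant. Called genes of lists with few calls were named after their values were seen. The most correlated genes of RB1 could not be chosen. One gene of the apoptosis list is not reported here, and the list's counts are without it. The closing section gives the alternatives.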

Additional observations from a re-analysis of the deposited data

How the results depend on the processing

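E2F3, E2F5 and RBL2 kept their FPKM calls in all 14 other settings, and 3 or 4 of the 9 genes were called in each (3 to 4 when single libraries were left out). The fourth was E2F1 or E2F2. Genes called on FPKM numbered 3015, and 1897 at a minimum mean FPKM of 10. They numbered 1611 to 2733 when single libraries were left out, with 1611 without the siChe-1 library at position 3 and 1681 without the siControl library at list position 3. Higher and lower calls were 1812 and 1203, against 1213 and 1591 with the deposited scaling, 1444 and 1490 with the median of ratios over all tested genes, 2225 and 917 with upper quartile scaling, and 949 and 948 at a minimum of 10.

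Genes called against the spike-ins numbered 8009 in the authors' deposited table. By edgeR they numbered 3558 with TMM, 3571 with median of ratios, and 2657 to 11549 when single libraries were left out, with 2657 without siChe-1 replicate 2. Of the 9 genes, 7 were called in the authors' deposited table. With the spike-in factors edgeR called 9, and 7 to 9 when single siControl libraries were left out. With the replicate number as a block, 60 genes and 0 of the 9 were called. Libraries with the same number deviated together from their group means, with a correlation of 0.31 and 0.32 over 12353 genes. The deviations of 2 siChe-1 libraries mirror each other, so these values are not separate observations. With 2 pairs the numbers are not taken to pair the libraries. On FPKM no paired fit could be made, because those values carry no replicate numbers.

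Some changes turned sign. With TMM and with median of ratios in place of the spike-in factors, the recovered reads gave 0.52 and 0.53 for E2F1, 0.085 and 0.090 for E2F8, 0.11 and 0.12 for RBL1, 0.35 and 0.35 for RBL2, and 0.40 and 0.40 for E2F7. On FPKM, E2F4 was at 0.032 with upper quartile scaling, and ranged from -0.13 to 0.056 when single libraries were left out, with a positive sign without the siControl library at list position 2 and the siChe-1 libraries at list positions 1 and 3. The deposited scaling gave -0.013 for E2F6, -0.013 for RBBP7 and -0.085 for MYBL2. MYBL2 was also at -0.054 with the median of ratios over all tested genes, and ranged from -0.11 to 0.13 when single libraries were left out. For scalings of the same reads the construction of the scale sets the shift; otherwise the cause was not tested. The depth of siChe-1 replicate 3 is unknown, and intervals cover the spread between libraries only.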
